A study of Mus musculus with 5 samples.

Results

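The tumor suppressor gene Trp53 and 9 genes known as direct targets of its protein p53 (Cdkn1a, Phlda3, Ccng1, Bax, Zmat3, Eda2r, Gdf15, Trp53inp1 and Bbc3) were followed across pancreatic islet cells and alpha-cell tumors of the mouse. The 10 genes were taken by symbol from a list that named them, and all 10 were found among the 36529 gene rows of each expression table. The study profiled single cells with the 10x Genomics Chromium 3' method, which counts each captured polyadenylated transcript once by a unique molecular identifier (UMI). All mice carried a knockout of Gcgr, the glucagon receptor: 1 islet library came from a heterozygous knockout, 1 islet library from a homozygous knockout, and 3 libraries from tumors of homozygous knockout mice, each of a different animal by the header of the table. No wild-type islets were analysed here, no treatment was given, and the labels state no age or strain. The tumor libraries could not be matched to the labels' tumor numbers and are called A, B and C. Since each islet genotype was 1 library, nothing between the genotypes could be tested.

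p53 is a transcription factor that is kept scarce in resting cells by Mdm2, a ubiquitin ligase which binds p53 and sends it to the proteasome. DNA damage or oncogene activity frees p53, partly through the Arf protein made from Cdkn2a, which blocks Mdm2. Freed p53 binds DNA at a pair of decamers, together called the p53 response element, and raises genes that stop the cell cycle (Cdkn1a), restrain survival signals (Phlda3) or open mitochondria in apoptosis (Bax, Bbc3). Mdm2 is itself a p53 target, which closes a feedback loop. Alpha cells secrete glucagon, and mice that lack the glucagon receptor are known for alpha-cell expansion and for tumors of these cells. Activity of p53 is set largely by the amount and modification of its protein, which RNA does not measure.

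The promoter windows of the RefSeq annotation (GRCm38.p6, from 250 bases before to 50 bases after a gene start) were searched for the p53 response element, because members that move together would be read against it. A match was a pair of decamers of 10 letters with exact cores (a C and a G around A or T letters), at most 1 base between them and at most 3 mismatches to the consensus in the 20 letters. The consensus decamer reads the same on both strands, so 1 scan covered both, and no other motif was searched. Of 12 windows for 8 members, 4 windows of 4 genes held a match, against 1.06% of all 32851 windows. Zmat3 and Trp53inp1 were not in the promoter table. A match is a run of letters and was not tested as a binding site. The 4 sequences are shown 5′ to 3′ on the gene's strand, with the matched pair in capitals and 40 bases on each side where the bases before the start allowed it.
Cdkn1a, chr17:29090888-29090978, plus strand: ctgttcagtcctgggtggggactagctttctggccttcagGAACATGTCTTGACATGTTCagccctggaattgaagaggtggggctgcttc
Bax, chr7:45467039-45467139, minus strand: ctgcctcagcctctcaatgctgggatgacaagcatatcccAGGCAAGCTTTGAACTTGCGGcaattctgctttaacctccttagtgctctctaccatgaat
Bbc3, chr7:16309446-16309545, plus strand: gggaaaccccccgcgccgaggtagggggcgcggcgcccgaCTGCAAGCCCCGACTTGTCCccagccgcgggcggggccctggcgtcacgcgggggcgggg
Trp53, chr11:69580244-69580343, plus strand: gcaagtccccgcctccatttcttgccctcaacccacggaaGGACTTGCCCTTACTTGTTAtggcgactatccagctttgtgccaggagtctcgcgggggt
The Cdkn1a pair had 1 mismatch and ended 31 bases before the gene start that defines the more upstream of its 2 windows. The Bax pair had 2 mismatches and 1 base between its decamers. The pairs of Bbc3, at the most upstream of its 3 windows in the table, and of Trp53 had 3 mismatches each.

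After filtering, the heterozygous and homozygous islet libraries held 1326 and 2843 cells and the 3 tumor libraries 496 (A), 846 (B) and 1084 (C), from tables of 10508498 to 34101553 UMIs per library before doublets were removed. Gcgr checked the labels: it gave 8 UMIs in heterozygous and 0 in homozygous alpha cells, 124 UMIs in heterozygous and 0 in homozygous beta cells, and 0, 1 and 3 UMIs in the whole of tumor libraries A, B and C. The sources used here do not give which stretch of Gcgr was deleted, so a transcript end could remain. The tumor cells bore out their label, since alpha-cell markers such as Gcg and Ttr summed to 382012 to 445968 CPM (UMIs per 1000000 UMIs of a class) in the 4 deposited tumor clusters, against 390395 CPM in the heterozygous and 390922 CPM in the homozygous islet alpha cells. The clusters nearly coincided with libraries: cluster 3 held 494 cells of library A, cluster 1 held 844 cells of library B, and clusters 2 and 4 held 697 and 385 cells of library C. The median mitochondrial share was 0.571% and 0.599% in the islet libraries and 1.18% to 2.00% in the tumor libraries.

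Trp53 itself (chr11:69580348-69591873) was present at a low level in every cell class of 20 or more cells. In the tumor clusters Trp53 stood at 73.8 CPM in cluster 2 (95% exact Poisson interval 69.3 to 78.5, counting error only), 55.0 CPM in cluster 4, 46.8 CPM in cluster 1 and 38.0 CPM in cluster 3. In alpha cells Trp53 stood at 41.7 CPM in the heterozygous library (34.9 to 49.4) and 28.1 CPM in the homozygous library (25.9 to 30.4). Beta cells had the lowest Trp53 levels, 10.8 CPM in the heterozygous and 11 CPM in the homozygous library. The highest levels were 110.5 CPM in homozygous stellate cells and 106.5 CPM in heterozygous endothelial cells. Of the 16 pairs of neighbours in the order of 17 classes, 15 had overlapping intervals, so most neighbours did not differ beyond counting error, and the pair that did not overlap was homozygous PP cells above homozygous beta cells. After thinning each cell to 5000 UMIs, 30.1% of cluster 2 cells held a Trp53 UMI (exact binomial interval 26.7% to 33.7%), against 3.53% of heterozygous beta cells. Without thinning these shares were 73.5% and 23.8%.

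Cdkn1a (chr17:29090979-29100722) encodes p21, the inhibitor of cyclin-dependent kinases through which p53 arrests the cycle. Endothelial cells had the highest Cdkn1a levels, 499.9 CPM in the homozygous library (443 to 562) and 357 CPM in the heterozygous library (318 to 399). Of the tumor clusters, 3 came next, with 223 CPM in cluster 3, 168 CPM in cluster 4 and 154 CPM in cluster 2, while cluster 1 at 85.0 CPM ranked below homozygous alpha cells. Alpha cells held 92.9 CPM of Cdkn1a in the homozygous library (88.9 to 97.0) and 37.6 CPM in the heterozygous library (31.2 to 45.0). Beta cells held 33.8 CPM and 13.3 CPM, in the same order of libraries. After thinning, 55.2% of cluster 3 cells, 40.9% of cluster 4, 38.6% of cluster 2 and 23.8% of cluster 1 cells held a Cdkn1a UMI, against 31.3% of homozygous and 15.4% of heterozygous alpha cells. Unthinned, the 4 tumor shares were 82.4%, 70.6%, 63.1% and 51.9%, and the 2 alpha shares 48.9% and 21.9%. Endothelial markers summed to 22.2 CPM in homozygous and 41 CPM in heterozygous alpha cells, against 10683 CPM and 12156 CPM in the endothelial cells of the same libraries.

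The other members ranked the classes in other ways. Phlda3 (chr1:135766085-135769134), which restrains Akt signalling at the membrane, was highest in stellate cells at 244 CPM (heterozygous) and 199.98 CPM (homozygous), and lay between 11.8 and 32.8 CPM in the tumor clusters. Ccng1 (chr11:40748552-40755309), cyclin G1, which brings a phosphatase to Mdm2, was highest in tumor cluster 3 at 119 CPM and lowest in homozygous PP cells, the cells that secrete pancreatic polypeptide, at 12.5 CPM. Trp53inp1, a nuclear stress protein that binds p53 kinases, was highest in tumor cluster 4 at 141 CPM and in cluster 3 at 129 CPM, while its islet alpha levels were 27.7 and 29.2 CPM. Bax (chr7:45461695-45466903), which opens the mitochondrial outer membrane, lay between 82.0 CPM in heterozygous beta cells and 296 CPM in the homozygous cells to which the submitters gave no type name. Those cells were macrophage-like by their markers, which summed to 54898 CPM. The same markers summed to 111939 CPM in heterozygous macrophages and 73.1 CPM in homozygous alpha cells. For Zmat3, an RNA-binding zinc finger protein, and Bbc3 (chr7:16308398-16318334), the death protein Puma, every pair of neighbours in the order overlapped.

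Eda2r (chrX:97333837-97377234), a receptor of the tumor necrosis factor family, and Gdf15 (chr8:70629393-70632470), a secreted stress factor, were near the limit of detection. Eda2r was at most 11.1 CPM in any class and stood at 0 UMIs in 6 of the 17 classes. Gdf15 was at most 29.3 CPM, which it reached on 8 UMIs in the homozygous cells with no type name, and stood between 0.886 and 6.68 CPM in the tumor clusters. Eda2r stood at 9.64 CPM in tumor cluster 3, 7.32 in cluster 2, 6.44 in cluster 4 and 3.23 in cluster 1, against 2.18 CPM in alpha cells of the heterozygous and 2.66 CPM of the homozygous library. In beta, delta and PP cells at most 2 UMIs of Eda2r were seen per class.

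**Figure D1:**
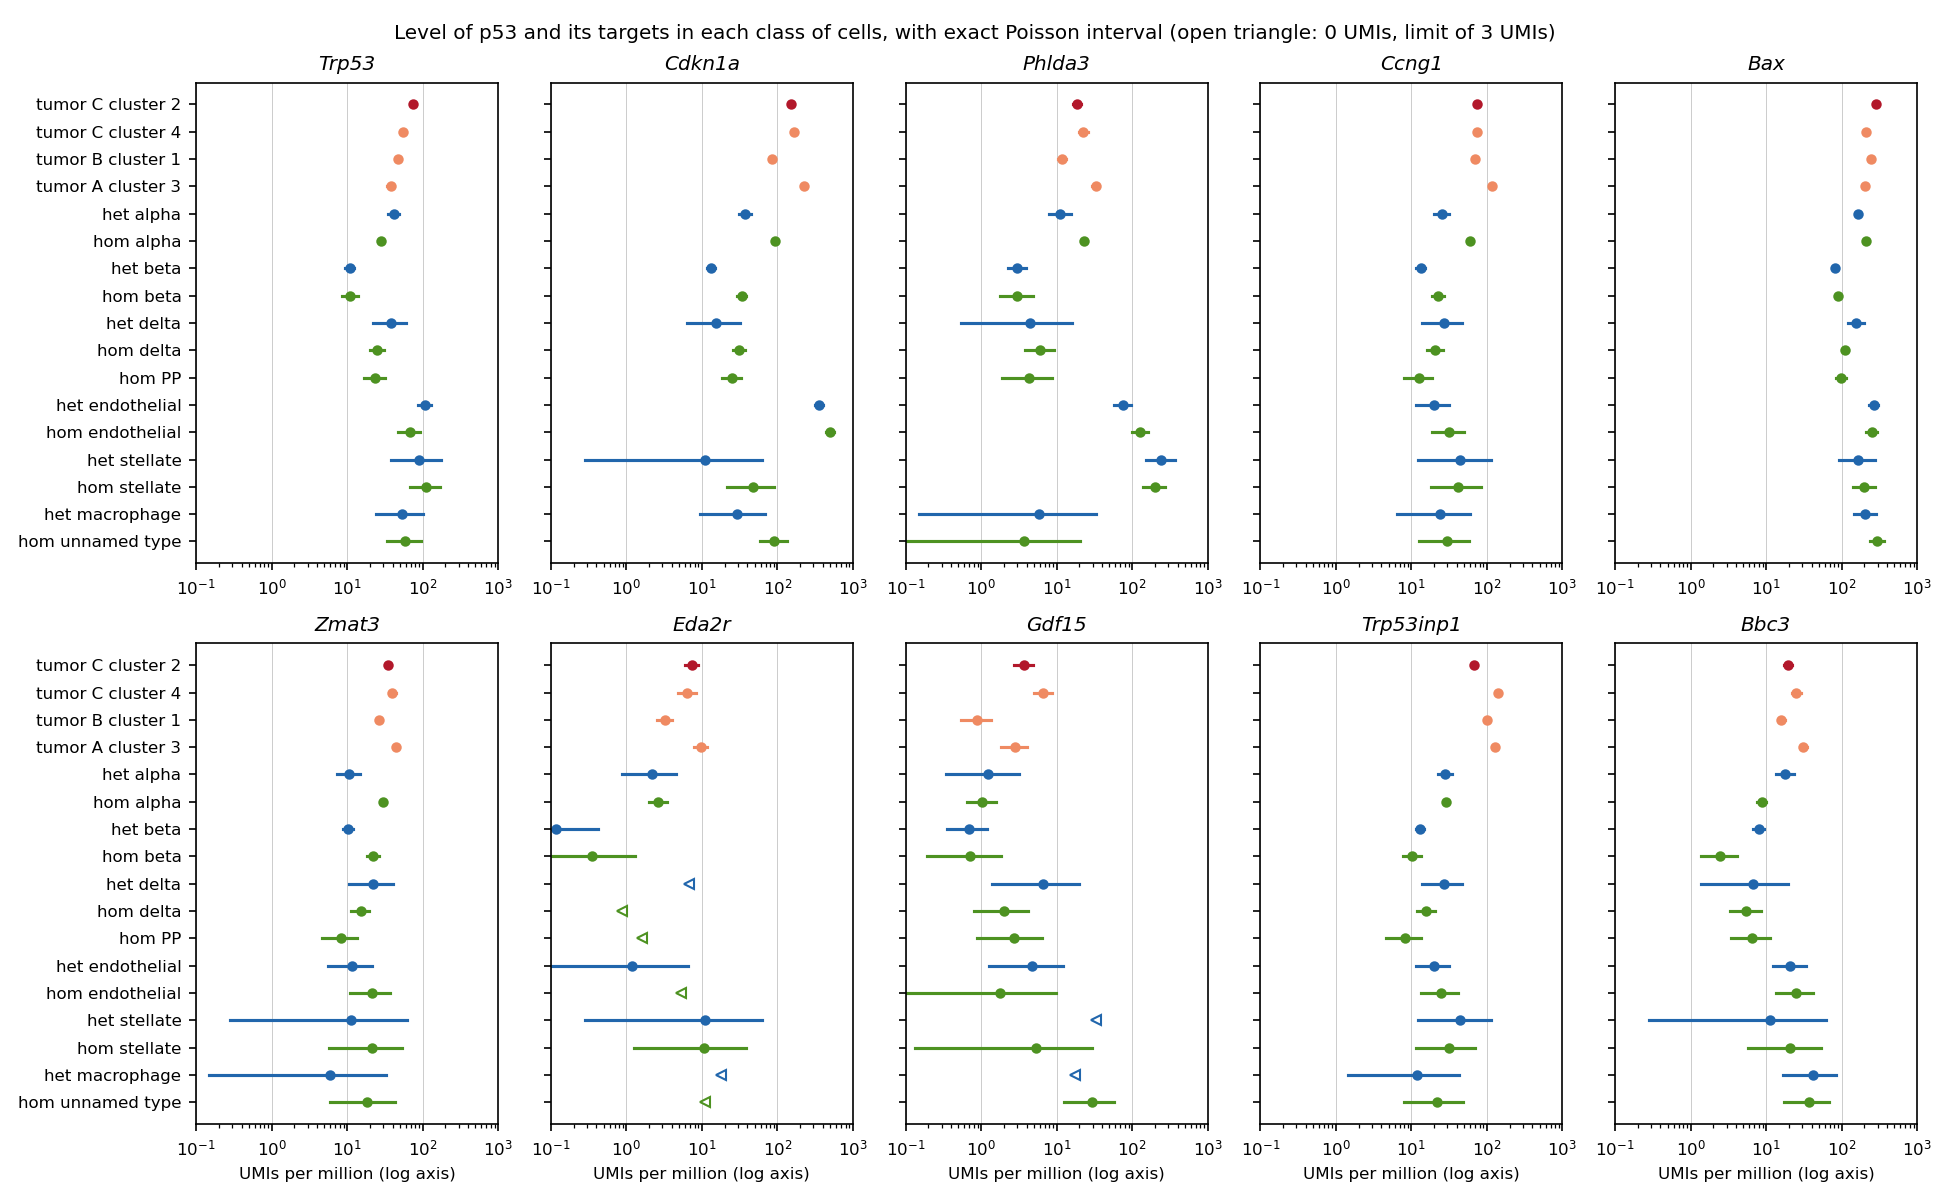
Level of each member in CPM (log axis) in 17 classes of cells, 1 panel per gene; points are levels, bars are 95% exact Poisson intervals and open triangles mark the limit of 3 UMIs where no UMI was seen. Cluster 2 of tumor library C (dark red, top row) sits among the other tumor clusters (orange) for most members, and the endothelial rows stand at 357 and 499.9 CPM for Cdkn1a.

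Across the 17 classes the members did not follow a single pattern. The most alike pair was Ccng1 and Trp53inp1, with a Pearson correlation of 0.92 on log2(CPM + 1), followed by Trp53 with Bax at 0.81. The least alike was Phlda3 with Gdf15 at -0.08. Among the 6610 genes with 50 CPM or more in a class, those most like Trp53 were Lyar (0.96), Rbm7 (0.95), Chic2 (0.95), Ccdc55 (0.94) and Tmem123 (0.94). Those most like Cdkn1a were Eif2s2 (0.90), Dhx15 (0.88), Rsad2 (0.87), Ubn1 (0.87) and Arap2 (0.86). These correlations are descriptions over classes that share libraries and differ in depth.

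Cluster 2 was set against the other tumor clusters because it stood out in Mdm2. Mdm2 (chr10:117688875-117710758) was at 2450.3 CPM in cluster 2, 168 CPM in cluster 4, 49.3 CPM in cluster 3 and 44.9 CPM in cluster 1, and at 25.5 CPM in the alpha cells of both islet libraries. After thinning, 99.3% of cluster 2 cells held at least 1 Mdm2 UMI (99.7% without thinning), which at that level says little of how evenly the cells shared it. Cdk4, a kinase that drives entry into S phase and is blocked by the Cdkn2a product p16, was at 2765 CPM in cluster 2 and 212 CPM in cluster 4. Since the clusters were made from all genes of these cells, the values are a description with no test. Only the comparison with cluster 4 lies within 1 library, and those with clusters 1 and 3 are also comparisons between animals.

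Within library C the p53 targets were not uniformly lower in the Mdm2-rich cluster. Cdkn1a was 154 CPM in cluster 2 and 168 CPM in cluster 4, a ratio of 0.916 (95% exact conditional interval 0.855 to 0.981). Ccng1 was 75.2 and 75.0 CPM, a ratio of 1.00 (0.907 to 1.11). Trp53 was 1.34 times (1.20 to 1.5) and Bax 1.36 times (1.28 to 1.44) the level of cluster 4. Phlda3 at 0.820 times and Bbc3 at 0.785 times were lower by less than 1.5-fold, and Zmat3 at 0.877 times had an interval that held 1 (0.760 to 1.01). Cycling cells, defined further on, were 56 of the 697 cells of cluster 2 and 11 of the 385 of cluster 4, and without them the Cdkn1a ratio was 0.836. With each cell thinned to 5000 UMIs it was 0.998.

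Trp53inp1 was the member that passed the 1.5-fold mark used for descriptions. It stood at 67.4 CPM in cluster 2 and 141 CPM in cluster 4, a ratio of 0.479 (0.439 to 0.523), and 24.5% against 47.5% of thinned cells held a UMI of it (61.0% against 85.5% unthinned). Of the 8 members that reached 10 CPM in either cluster, 0 were higher and 1 was lower by 1.5-fold or more, against 14.3% and 5.6% of 8140 genes at that level. The median log2 ratio of these 8 was -0.16, and that of all genes at that level was 0.17. With the 8 hormone transcripts left out of the totals, or with each cell thinned, 2 members were lower by this fold.

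Against cluster 1 of library B, 3 of 8 members (Cdkn1a, Trp53 and Phlda3) were higher by 1.5-fold or more and Trp53inp1 was lower, where 17.2% of genes were higher and 8.94% lower. Cdkn1a was 1.81 times (1.70 to 1.92) its level in cluster 1. Against cluster 3 of library A, Trp53 was higher at 1.94 times, and Phlda3, Ccng1, Trp53inp1 and Bbc3 were lower, where 19.3% of genes were higher and 10.5% lower. Cdkn1a was 0.690 times (0.649 to 0.732) its level in cluster 3. Cluster 2 therefore lay between libraries A and B in its Cdkn1a level. Among the 8 members at this level, Trp53inp1 alone passed 1.5-fold in 1 direction in all 3 comparisons, at 0.479, 0.662 and 0.523 times clusters 4, 1 and 3. Trp53 was higher in all 3, at 1.34, 1.58 and 1.94 times.

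**Figure D2:**
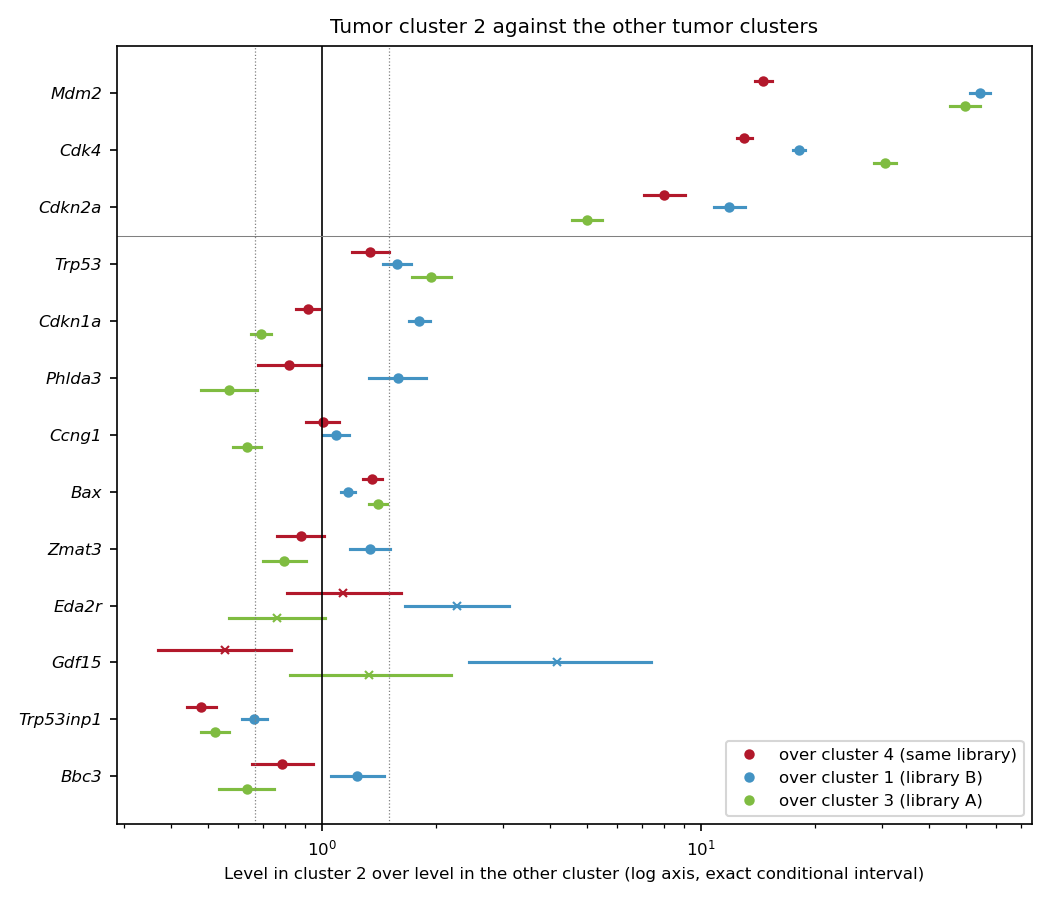
Level in tumor cluster 2 over the level in cluster 4 of the same library (red), cluster 1 of library B (blue) and cluster 3 of library A (green), on a log axis; bars are 95% exact conditional intervals, dotted lines mark 1.5-fold, and crosses mark genes under 10 CPM in both clusters. Mdm2, Cdk4 and Cdkn2a lie far to the right of 1, while the members scatter on both sides of 1 and Trp53inp1 lies to the left in all 3.

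Other genes of the p53 pathway, from a list of 50 of which 49 were found, were read beside the members. Against cluster 4, 27 of them reached 10 CPM. Of these, 9 were higher and 1 lower by 1.5-fold, where 14.3% of all genes were higher and 5.6% lower. Their median log2 ratio was 0.31, against 0.17 for all genes. The count and the median include Mdm2, for which cluster 2 was singled out. The largest ratios were those of Mdm2 at 14.6 times, Cdkn2a at 8.0 times (275 against 34.4 CPM), Sfn at 3.59, Pml at 2.42, Sesn1 at 2.01 and Plk2 at 1.69 times. Sfn encodes the 14-3-3 sigma arrest protein and Sesn1 a stress-induced restraint on growth signalling. Counts by gene cannot separate the Arf and p16 transcripts of Cdkn2a, which share their last exons. Sco2, needed to build cytochrome oxidase, was lower at 0.52 times. Marker transcripts of other cell types were also unequal between the clusters: beta-cell markers summed to 1185 CPM in cluster 2 and 6839 CPM in cluster 4, and macrophage markers to 184 and 406 CPM. The median mitochondrial share was 2.19% in cluster 2 and 1.73% in cluster 4. The part of these in the ratios was not tested.

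The Mdm2 level also varied within cluster 2, and its cells were divided at the median of 10 Mdm2 UMIs per 5000, a cut chosen after the levels were seen. Of the 687 cells deep enough for thinning, 315 lay above the median and 372 at or below it, with 121 within 1 UMI of the cut. Cdkn1a was 129 CPM (120.0 to 138) in the upper range and 175 CPM (165 to 185) in the lower. Phlda3 was 11.4 CPM (8.87 to 14.4) against 24.8 CPM (21.3 to 28.6), and Ccng1 was 66.3 CPM (60.1 to 73.1) against 83 CPM (76.6 to 89.9). These 3 of the 9 targets were lower where Mdm2 was higher, with intervals, of counting error only, that did not overlap. The share of all genes that part in this way at the cut was not computed, so the count has no background beside it. The intervals of the other 6 targets overlapped: Bax was higher, at 299 against 278 CPM, and Zmat3 (34.3 against 35.5 CPM), Trp53inp1 (64.1 against 70.4 CPM), Bbc3, Eda2r and Gdf15 were lower. Trp53 was 75.9 against 71.9 CPM, also with overlapping intervals. The median depth was 19014 and 18939 UMIs per cell, and the median mitochondrial share 2.35% and 2.04%.

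In the other tumor cells, whose Mdm2 was low, the cells with a Mdm2 UMI after thinning held more Cdkn1a than those without. In library A Cdkn1a was 306 CPM (282 to 331) in 98 cells with a Mdm2 UMI and 202 CPM (192 to 212) in 382 cells without. In library B it was 148 CPM (137 to 160) in 157 cells with a Mdm2 UMI and 71.0 CPM (67.2 to 74.9) in 685 without. In cluster 4 it was 179 CPM (167 to 192) in 212 cells and 155 CPM (142 to 168) in 169 cells, and those intervals overlapped slightly. Ccng1 went the same way, at 151 against 111 CPM in library A and 88.8 against 64.8 CPM in library B. In cluster 4 Ccng1 was 81.4 against 67.4 CPM, with overlapping intervals. In libraries A and B every member was higher in cells with a Mdm2 UMI, though several intervals overlapped. The share of all genes that were higher in such cells was not computed, so whether the members stand apart from other genes is not known. In homozygous islet alpha cells Cdkn1a was 96.7 CPM with and 91.6 CPM without a Mdm2 UMI, with overlapping intervals. Ccng1 in these alpha cells was 78.1 CPM (67.1 to 90.3) with and 59.0 CPM (55.6 to 62.5) without, and those intervals did not overlap. The direction of Cdkn1a with Mdm2 in libraries A and B was thus the opposite of that within cluster 2, a difference that was not tested. The cuts were unlike, at the median of 10 Mdm2 UMIs in cluster 2 and at the presence of a UMI in the libraries. Mdm2 was 3687 against 1398 CPM across the cut in cluster 2. Across the other cut it was 104 against 35.4 CPM in library A and 91.5 against 34.7 CPM in library B. With and without a Mdm2 UMI, the median mitochondrial share was 1.47% and 1.22% in library A and 1.23% and 1.17% in library B. Cycling cells, defined further on, were kept here and held more of both Mdm2 and Cdkn1a in these libraries. The part of these in the differences was not tested.

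Cluster 2 was also set against the alpha cells of each islet library, and held 1.5-fold or more of 7 members over the heterozygous and of 4 over the homozygous library. Over heterozygous alpha cells, 7 of 8 members at 10 CPM were higher by 1.5-fold or more and 0 lower, where 31.4% of 8521 genes were higher and 15.4% lower. Their median log2 ratio was 1.05, against 0.24 for all genes. Cdkn1a was 4.08 times (3.40 to 4.94), Zmat3 3.31 times, Ccng1 2.99 times and Trp53inp1 2.44 times the heterozygous level. Over homozygous alpha cells, 4 of 8 members (Trp53, Trp53inp1, Bbc3 and Cdkn1a) were higher and 0 lower, a share near that of all 8031 genes, of which 52.0% were higher and 5.49% lower. Their median log2 ratio was 0.60, against 0.62 for all genes. Trp53 was 2.62 times (2.37 to 2.90), Trp53inp1 2.31 times and Cdkn1a 1.65 times the homozygous level. Phlda3 was 0.812 times the homozygous level (0.696 to 0.947).

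Among other pathway genes, cluster 2 held 111 times the heterozygous alpha level of Cdkn2a (8 UMIs there, interval 56.1 to 256) and 96.1 times that of Mdm2. Sfn was 6.62 times, Perp 2.91 times, Gadd45a 2.79 times and Plk2 2.78 times the heterozygous level, and Rrm2b, a subunit of the enzyme that makes deoxynucleotides, was 0.437 times. Ddit4 at 0.566, Triap1 at 0.618, Ei24 at 0.619 and Sesn1 at 0.647 times were the other lower genes. Over homozygous alpha cells Mdm2 was 95.9 times, Cdkn2a 10.7 times, Sfn 8.19 times, Gadd45a 4.95 times, Btg2 4.04 times and Atm 3.28 times as high, and Rrm2b was 0.502 times. Of 27 pathway genes at that level, 10 were higher and 5 lower than in heterozygous alpha cells, where 31.4% of all genes were higher and 15.4% lower. Against homozygous alpha cells 14 of the 27 were higher and 1 lower, a share near the 52.0% of all genes that were higher. Both counts of higher genes include Mdm2, for which cluster 2 was singled out.

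Whether tumors and islet alpha cells differ was tested over libraries, 3 tumor libraries against the alpha cells of the 2 islet libraries, with limma on log2 of the mean CPM over cells plus 1. The islet arm joined both genotypes. Of 10173 genes tested, 210 were higher and 14 lower in tumors at an adjusted p under 0.05. The median gene was 0.24 higher on the log2 scale, and changes are given relative to it. With the composition correction TMM (trimmed mean of M values) this median was 0.04, with 35 genes higher and 5 lower. With the 8 hormone transcripts left out of the totals it was -0.06, with 25 higher and 5 lower. These transcripts held 431529 CPM of heterozygous and 501031 CPM of homozygous alpha cells, and 295296 to 370190 CPM of the tumor libraries.

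Of the 9 members tested, 1 was higher and 0 lower, where 2.06% of all genes were higher and 0.138% lower. Trp53inp1 (chr4:11156441-11174379) had mean levels of 136, 106 and 98.7 CPM in tumor libraries A, B and C and 28.8 and 30.1 CPM in the heterozygous and homozygous alpha cells. All 3 tumors lay above both islet values. Its log2 change relative to the median gene was 1.66 ± 0.25 (SE), with an adjusted p of 0.0210 by limma. This call was narrow: the limma adjusted p was 0.0518 without tumor library A, 0.113 without the heterozygous and 0.0681 without the homozygous islet library, 0.0580 with TMM, 0.0546 with hormone transcripts left out and 0.0676 without a filter on low levels. With edgeR it was 0.0783, and with DESeq2 the call stood. Over all the alternatives run its relative log2 change lay between 1.45 and 1.91. Beta-cell markers summed to 55515 and 11488 CPM in the heterozygous and the homozygous alpha cells and to 4.35, 99.2 and 3323 CPM in tumor libraries A, B and C. Immediate-early genes, a list described further on, summed to 3388 and 351 CPM in those alpha cells and to 2415, 2014 and 2404 CPM in the tumors. The part of these in the call was not tested.

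Cdkn1a was 240.3, 90.3 and 161 CPM in tumor libraries A, B and C and 44.3 and 101 CPM in the alpha cells of the heterozygous and the homozygous library. Library B lay below the homozygous islet value, so the groups overlapped, and the relative log2 change of 0.93 ± 0.47 (SE) had a limma adjusted p of 0.208. Ccng1 was 123, 72.6 and 75.5 CPM in the tumors and 26.0 and 62.7 CPM in alpha cells, without overlap. Its relative change of 0.86 ± 0.40 (SE) had a limma adjusted p of 0.177. Without the heterozygous library the Cdkn1a and Ccng1 changes were 0.18 and 0.07 (limma adjusted p = 0.552 and 0.484), and without the homozygous library 1.66 and 1.62 (limma adjusted p = 0.165 and 0.102). The other 6 tested members had limma adjusted p values of 0.281 to 0.688, and Gdf15 was too low to be tested. The median change of the 9 was 0.67 relative to the median gene.

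Of the 36 other pathway genes tested, 1 was higher and 0 lower, a share near the 2.06% of all genes that were higher. Gadd45a, which acts in growth arrest and DNA repair, was 49.1, 68.2 and 53 CPM in the tumors and 23.1 and 11.6 CPM in the alpha cells, a relative log2 change of 1.48 ± 0.32 (SE) with a limma adjusted p of 0.0401. This call was lost without any 1 library (limma adjusted p = 0.0794 to 0.113), without cluster 2 cells (0.0808), with TMM (0.0664), with edgeR (0.0988), without a filter (0.119) and with hormone transcripts left out (0.0724). The median of the 36 was 0.21 relative to the median gene. The arrest genes had the highest list median at 0.79 (7 tested), followed by regulators at 0.39 (9 tested), death genes at 0.30 (6 tested) and repair and metabolic genes at -0.02 (14 tested).

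**Figure D3:**
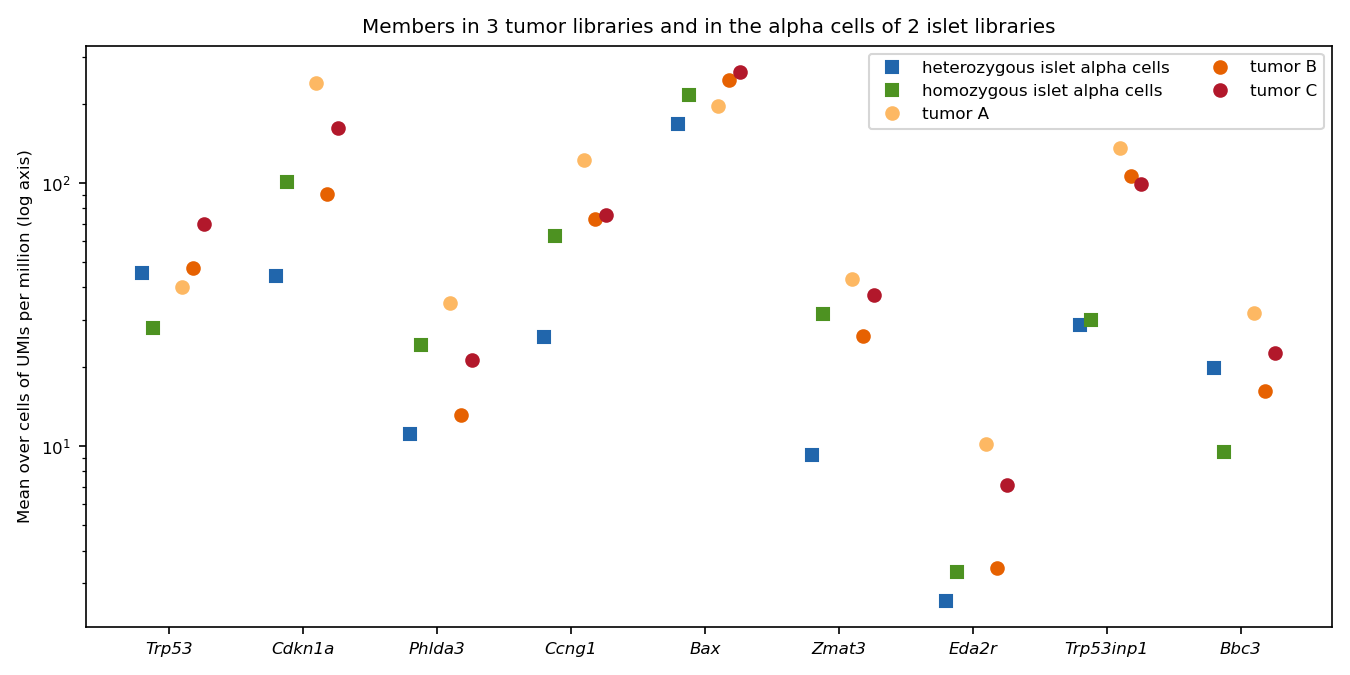
Mean level over cells in CPM (log axis) of the 9 tested members in tumor libraries A, B and C (circles) and in the alpha cells of the heterozygous and homozygous islet libraries (squares). Trp53inp1 is 98.7 to 136 CPM in the tumors and 28.8 and 30.1 CPM in the islets, whereas the homozygous islet square lies within the range of the tumors for Cdkn1a, Phlda3, Bax and Zmat3.

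Tumor cells in the cell cycle were compared with the other tumor cells of the same library, since p21 is known as an inhibitor of the cycle. To count as cycling, a cell thinned to 5000 UMIs had to hold at least 2 of 11 transcripts of the cycle, a list with no member in it. There were 26, 37 and 67 cycling cells in libraries A, B and C and 454, 805 and 1001 others, and with 3 or more cycle genes 18, 27 and 46 cells would count. The limma fit, with the library as a block, tested 10824 genes and called 907 higher and 146 lower in cycling cells. The median gene was 0.05 higher.

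Cycling cells held more of 5 members, and the other 4 tested did not pass. Of 9 tested, 5 were higher and 0 lower, where 8.38% of all genes were higher and 1.35% lower. Their median relative log2 change was 0.49.

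Cdkn1a was 449 CPM in cycling and 216 CPM in other cells of library A, 383 and 76.8 CPM in library B, and 288 and 153 CPM in library C. It was higher in cycling cells in 3 of 3 libraries, by a relative log2 change of 1.37 ± 0.20 (SE) with a limma adjusted p of 0.000213. Every cycling value exceeded every other value. Ccng1 was 239 and 116 CPM in library A, 208 and 66.8 CPM in library B, and 115 and 73.4 CPM in library C, in the same order of cells. Its relative change was 1.05 ± 0.17 (SE), with a limma adjusted p of 0.000393.

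Bax was 285 and 195 CPM in library A, 356 and 242 CPM in library B, and 367 and 256 CPM in library C. Its change was smaller but even among libraries, at 0.49 ± 0.11 (SE) relative to the median gene with a limma adjusted p of 0.00389. Phlda3 was 49.6 and 33.1, 27.4 and 12.3, and 30.7 and 20.6 CPM in libraries A, B and C, a relative change of 0.69 ± 0.21 (SE) with a limma adjusted p of 0.0377. Eda2r was 14.8 and 10.3, 15.4 and 2.91, and 14.1 and 6.76 CPM, a relative change of 1.12 ± 0.34 (SE) with a limma adjusted p of 0.0419. Ccng1, Bax, Phlda3 and Eda2r were each higher in cycling cells in 3 of 3 libraries. Every cycling value of Bax and Eda2r exceeded every other value, while for Phlda3 and narrowly for Ccng1 the libraries overlapped and the difference stood within each library.

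Trp53 was 68.1 and 37.2 CPM in library A, 44.2 and 47.7 CPM in library B, and 80.1 and 68.7 CPM in library C, so its direction was not shared by the libraries (limma adjusted p = 0.353). Trp53inp1, the member that was higher in tumors, was 144 and 135, 108 and 104, and 83.1 and 99.2 CPM, a relative change of -0.09 ± 0.14 (SE; limma adjusted p = 0.926). Zmat3 was higher in the cycling cells of every library, but its relative change of 0.33 ± 0.18 (SE) was not called (limma adjusted p = 0.229). Bbc3 changed by 0.01 ± 0.24 (SE; limma adjusted p = 0.921).

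Among 39 other pathway genes tested, 11 were higher in cycling cells and 0 lower, where 8.38% of all genes were higher and 1.35% lower. Their median relative log2 change was 0.42. The largest was Gtse1, a p53 target that is also made in G2 and S phase, at 3.90. It was followed by Siva1 at 1.62, the repair polymerase gene Polh at 1.45, Pidd1 at 1.28, Plk2 at 1.05, Pml at 1.01, Cdkn2a at 0.83 and Rps27l at 0.64. Mdm2 was 80.1 and 46.9 CPM in library A, 63.4 and 46.0 CPM in library B, and 2270 and 1608 CPM in library C in cycling and other cells, a relative change of 0.52 ± 0.12 (SE) with a limma adjusted p of 0.00628. In library C cluster 2, where Mdm2 was high, held 56 of the 67 cycling cells, and the part of this mix in the Mdm2 change was not tested. Without library C the relative change was 0.56 (limma adjusted p = 0.128), and with TMM the adjusted p was 0.0777. Arrest genes other than Gtse1 and Plk2 gave no call, and that list had a median of -0.18 over 8 tested.

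The calls in cycling cells differed in how they held. Cdkn1a and Ccng1 were called with TMM, with edgeR, with hormone transcripts left out and without any 1 library, but not without the library block or without a filter on low levels. Bax passed under the same settings other than TMM. Phlda3 lost its call without any 1 library (limma adjusted p = 0.0690 without A), and Eda2r without B or without C, which left 3 members called in each of those fits. Without library B the Cdkn1a change was 0.87, against 1.37 with all 3 libraries. With TMM 615 genes were higher and 758 lower, with edgeR 989 and 463, and with hormone transcripts left out 740 and 255. The median gene stood at -0.18 with TMM, -0.03 with edgeR and -0.05 with hormone transcripts left out. Hormone transcripts summed to 323485 against 382017 CPM in cycling and other cells of library A, 272282 against 299339 CPM in B, and 271618 against 321695 CPM in C. The median mitochondrial share was 1.56% and 1.24%, 1.22% and 1.18%, and 2.39% and 1.99% in the same order. The part of these in the calls was not tested.

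**Figure D4:**
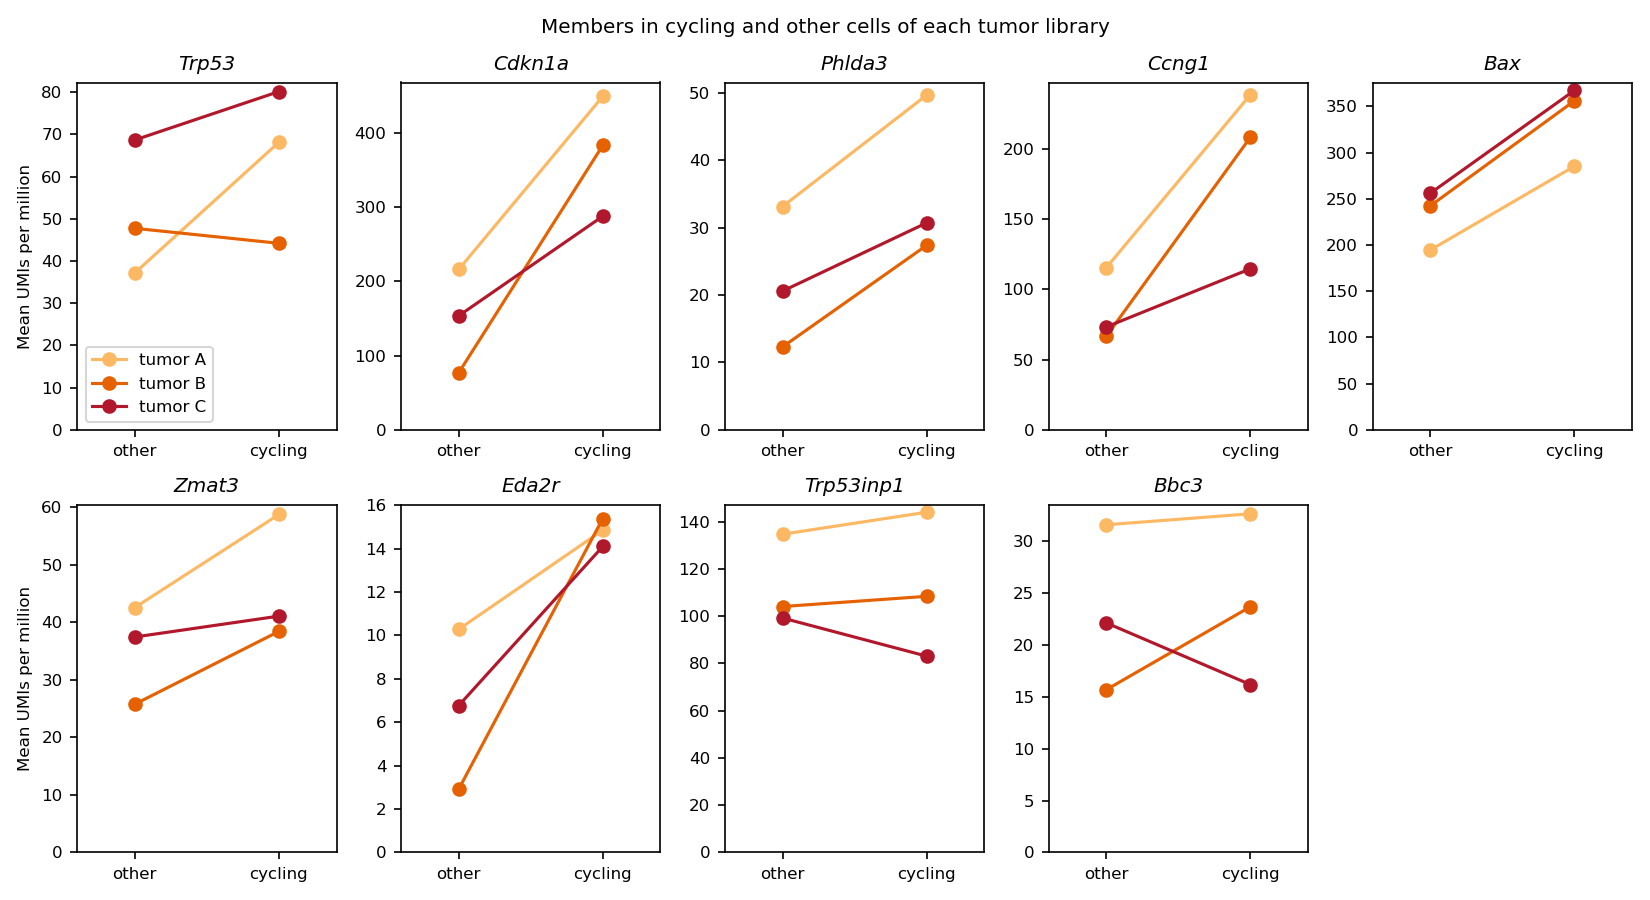
Mean level in CPM of the 9 tested members in other (left) and cycling (right) tumor cells, with 1 line for each of libraries A, B and C. The lines of Cdkn1a, Phlda3, Ccng1, Bax and Eda2r rise in all 3 libraries, as do those of Zmat3, which was not called. Those of Trp53, Trp53inp1 and Bbc3 do not all go the same way.

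The 2 islet genotypes differed in several p53 targets in alpha cells, with 1 library each and no test. Homozygous alpha cells held 92.9 CPM of Cdkn1a and heterozygous alpha cells 37.6 CPM, a ratio of 2.47 (95% exact conditional interval 2.05 to 2.99). Zmat3 (chr3:32334792-32365665) was 30.1 and 10.6 CPM, a ratio of 2.85 (2.02 to 4.15), Ccng1 60.7 and 25.2 CPM, a ratio of 2.41 (1.93 to 3.06), and Phlda3 22.9 and 11.2 CPM, a ratio of 2.05 (1.46 to 2.96). Bbc3 went the other way, at 8.75 and 18.0 CPM, a ratio of 0.485 (0.360 to 0.663). Trp53 was 0.675 times (0.559 to 0.819), Bax 1.24 times and Trp53inp1 1.05 times the heterozygous level.

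Of 8 members at 10 CPM, 4 were higher and 1 lower by 1.5-fold or more with the interval clear of 1, where 5.25% of 7550 genes were higher and 34.9% lower. The members' median log2 ratio was 0.67 and that of all genes was -0.38. The other pathway genes did not share this: of 23 at that level, Cdkn2a (10.3 times, on 8 heterozygous UMIs) and Rps27l (1.54 times) were higher and 9 were lower. Btg2, which slows proliferation, was 0.219 times (79.1 against 361 CPM), Atm 0.379, Ppm1d 0.400, Sesn1 and Ddit4 0.520 and Trp53i13 0.530 times the heterozygous level. Their median log2 ratio was -0.40.

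In beta cells 3 of these targets were also higher in the homozygous library. Cdkn1a was 33.8 CPM in homozygous and 13.3 CPM in heterozygous beta cells, a ratio of 2.54 (2.09 to 3.09), Zmat3 had a ratio of 2.13 (1.68 to 2.69) and Ccng1 of 1.70 (1.36 to 2.12). Of 6 members at 10 CPM, 3 were higher and 0 lower, where 9.16% of genes were higher and 9.04% lower. In endothelial cells Phlda3 was higher at 1.72 times (1.21 to 2.45) and Trp53 lower at 0.630 times (0.420 to 0.929), where 6.84% of genes were higher and 5.59% lower, and Cdkn1a was 1.4 times (1.19 to 1.65). In delta cells 0 of 6 members passed in either direction, where 1.99% of genes were higher and 25.8% lower, and in stellate cells 0 of 9, where 2.1% were higher and 2.22% lower. The Cdkn1a intervals ran from 0.941 to 5.11 and from 0.591 to 187, on 7 and 1 heterozygous UMIs, and both hold the alpha ratio of 2.47. In delta cells Ccng1 was 0.769 times (0.414 to 1.56) and Zmat3 0.676 times (0.340 to 1.49) the heterozygous level, intervals that lie below the alpha ratios of 2.41 and 2.85.

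**Figure D5:**
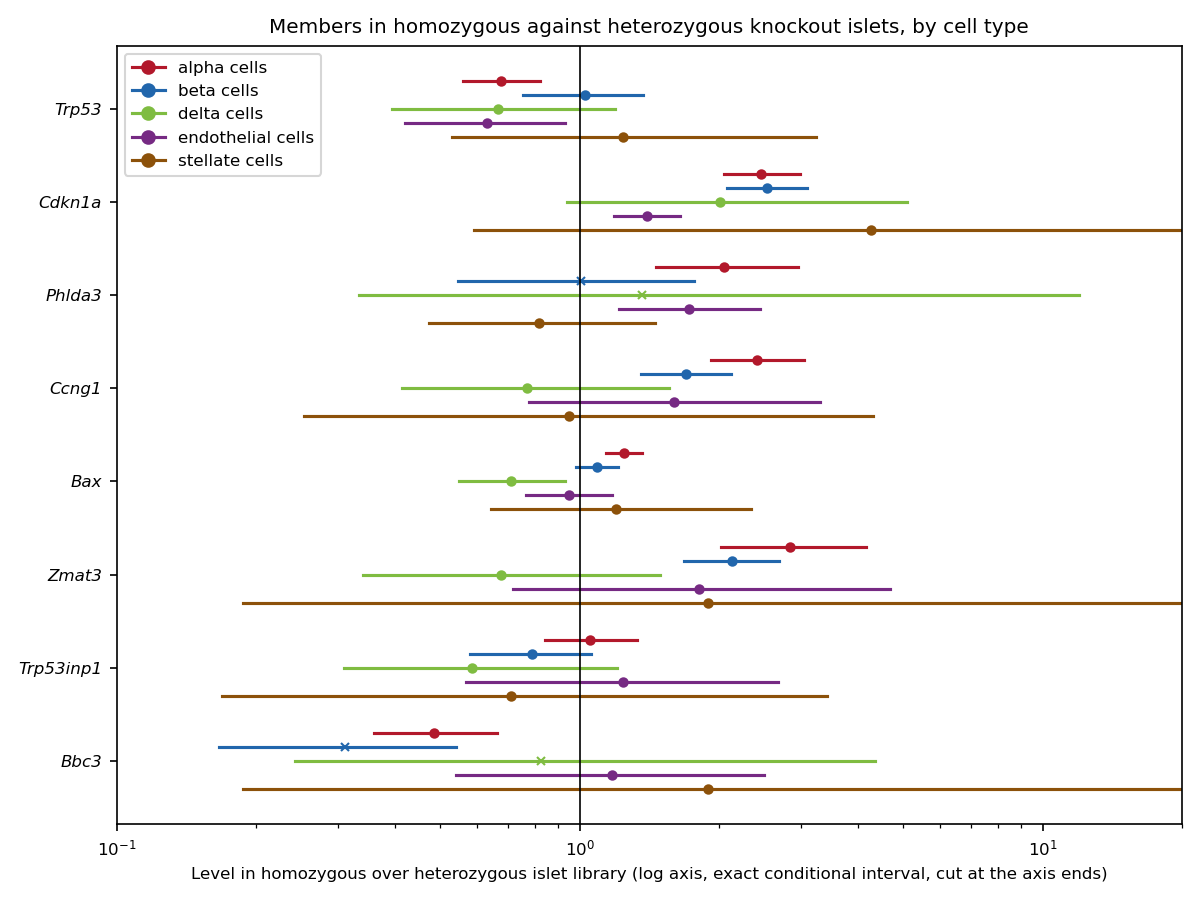
Level in the homozygous over the heterozygous islet library (log axis) for 8 members in 5 cell types, with 95% exact conditional intervals; crosses mark genes under 10 CPM in both libraries, and Eda2r and Gdf15, which had few UMIs, are not drawn. Cdkn1a lies right of 1 in all 5 types, with intervals clear of 1 in alpha, beta and endothelial cells.

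The libraries of the 2 genotypes also differed in other measures beside these ratios. Of 8 immediate-early genes (Fos, Fosb, Jun, Junb, Egr1, Ier2, Atf3 and Dusp1, a list made after the values were seen), which respond within minutes to stimuli such as tissue dissociation, the summed level was 3388 CPM in heterozygous and 351 CPM in homozygous alpha cells. It was 840.3 and 504 CPM in beta cells and 7615 and 6438 CPM in endothelial cells. Beta-cell markers summed to 55515 CPM in heterozygous and 11488 CPM in homozygous alpha cells, and Ppy, the PP-cell hormone, to 16006 and 76625 CPM. Median depth was 10002.5 and 14086 UMIs per alpha cell. The part of these in the ratios was not tested, and genotype and library cannot be told apart.

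Within the homozygous alpha cells, 6 of 8 members at 10 CPM were higher by 1.5-fold or more in the deposited cluster 2.1 than in cluster 2.2. Cdkn1a was 109.9 and 62.6 CPM (1.76 times, 1.59 to 1.95), Trp53inp1 36.0 and 16.6 CPM (2.2 times), Ccng1 73.2 and 38.9 CPM (1.88 times), Bbc3 10.2 and 6.26 CPM (1.63 times), Phlda3 26.3 and 17.3 CPM (1.52 times) and Zmat3 34.3 and 22.9 CPM (1.5 times). Trp53 was 28.1 and 28.0 CPM, a ratio of 1.00. These clusters were made from the same cells and the ratios are a description, in which 16.6% of 6515 genes were higher and 0.829% lower by 1.5-fold. The median log2 ratio of the 8 members was 0.65, and that of all genes was 0.31, also toward cluster 2.1. Ppy summed to 28703 CPM in cluster 2.1 and 158940 CPM in cluster 2.2, and all 8 hormone transcripts to 450598 and 590038 CPM. Of the other pathway genes Cdkn2a was 2.81 times, Usp7 1.87 times, Ak1 1.84 times, Hipk2 1.61 times and Trp53bp1 1.60 times the level of cluster 2.2.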

How the data were processed

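Single-cell RNA was measured in 2 islet and 3 tumor libraries, each group as the labels give it. Tools listed in the submitters' processing notes are GSNAP 2013-10-10, bcl2fastq 2.17 and CASAVA 1.8, with the build GRCm38 and no stated roles. Per the file headers the deposited values are a normalized signal, each cell's UMIs divided by its total and multiplied by a constant (9936 in the islet tables and 12219 in the tumor table), and the deposited cell totals are counts of UMIs. Whole UMIs were recovered by multiplying back: 100.0% of values came out whole within 0.01. Recovered totals were a median of 1.014, 1.020 and 1.028 times the deposited totals in the heterozygous, homozygous and tumor tables. The recovered UMIs were scaled to 1000000 by each cell's recovered total.

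No cell failed the minimum of 1000 UMIs and 500 genes or the maximum of 20% mitochondrial UMIs. Doublets called by Scrublet (scanpy 1.11.5) were removed: 8 heterozygous, 1 homozygous, 17 of A, 9 of B and 15 of C. Few calls in the homozygous library leave doublets possible there. No cell name was shared between libraries; the names are not barcodes. Cell types are the deposited Classifications and tumor clusters the deposited Graph-based numbers.

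Levels are UMIs of a gene over all UMIs of the class, with exact intervals at 95% that cover counting error only. Descriptions used 10 CPM in either arm and 1.5-fold. Tests used limma 3.58.1 with a trended prior on log2(CPM + 1), genes with 5 CPM in 2 libraries, and Benjamini-Hochberg adjustment over all genes; edgeR 4.0.16 and DESeq2 1.42.0 on recovered UMIs were alternatives. In tumors against alpha cells, the test measures spread among 3 tumor libraries and between 2 islet libraries, which differ in genotype. In the cycling comparison it measures how the difference within a library varies over 3 tumor libraries. The fits were run on simulated counts with no differences among libraries beyond depth and random spread, and the intervals on simulated counting error alone. These runs do not cover the spread among real libraries. Pairing in the cycling comparison comes from the library, which gave both kinds of cells. Named genes were the 10 members, Mdm2, pathway genes past the threshold (up to 8 each way) or past the fold (up to 6 each way), and the 5 genes most like Cdkn1a and Trp53. Leaving hormone transcripts out in the cycling comparison, thinning in the genotype comparison, the division of cells by Mdm2 and the immediate-early list were chosen after seeing the data. The members and all lists were chosen with earlier results of these data known. Tigar, of the pathway list, and Adgre1, of the macrophage list, were not found under those symbols. Positions and promoter windows are from RefSeq for GRCm38.p6, matched by Entrez number. In that annotation Zmat3 overlaps 4930429B21Rik and Eda2r overlaps Gm18111, and the sources used here do not state whether counting used the strand.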

Additional observations from a re-analysis of the deposited data

Results flagged for a closer look

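Bax differed in direction between islet cell types, a difference that was not tested. It was higher in homozygous than in heterozygous alpha cells, at 208 against 167 CPM and a ratio of 1.24 (1.14 to 1.36), and lower in homozygous than in heterozygous delta cells, at 111 against 156 CPM and a ratio of 0.711 (0.550 to 0.931). The delta value rests on 70 heterozygous UMIs of Bax. In delta cells the log2 ratio of Bax was -0.49, near the median of all genes at -0.54. In alpha cells it was 0.31, above the median of all genes at -0.38. Relative to the median gene, Bax was therefore not clearly lower in delta cells.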

How the results depend on the processing

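In tumors against islet alpha cells, 210 genes were higher and 14 lower and 1 member higher. Without a filter on low levels 6 were higher, 0 lower and 0 members higher. With TMM the counts were 35, 5 and 0, with hormone transcripts left out of the totals 25, 5 and 0, with edgeR 14, 1 and 0 (1786 genes at an unadjusted p under 0.05), with DESeq2 395 and 265 with 1 member, without cluster 2 cells 135 and 9 with 1 member, and with a pseudocount of 5 CPM 24 genes were lower. Leaving out 1 library gave 14 to 138 genes higher, 0 to 22 lower and 0 to 1 members higher. In cycling against other tumor cells, 907 genes were higher and 146 lower and 5 members higher. Without a filter there were 340 higher, 4 lower and 0 members, although 6 of 10 members tested had an unadjusted p under 0.05. TMM gave 758 lower and 2 members, edgeR 463 lower, and leaving hormone transcripts out of the totals, added after seeing the data, 255 lower and 3 members. Leaving out cluster 2 cells gave 553, 82 and 3, the same as leaving out library C, which then held 11 cycling cells and was dropped. Leaving out 1 library gave 553 to 797 higher, 82 to 114 lower and 3 to 4 members. With no replicate block, that is without pairing by library, 324 genes were higher, 0 lower and 0 members higher. In cluster 2 against cluster 4, 2 members were lower with hormone transcripts left out and with thinned cells, and in homozygous against heterozygous alpha cells 2 were lower with the mean over cells. Leaving out a tumor library gave no other value for cluster 2, which lies in library C alone. No value reversed its direction past its threshold. The Zmat3 ratio of homozygous to heterozygous alpha cells was 2.85, and 4.51 with thinned cells. The number of libraries limits the tests, and depth limits Eda2r, Gdf15 and the delta and stellate cells.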
